A study of Rattus norvegicus with 36 samples.

Results

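The genes described here encode caveolin-1 and the EMP/PMP22 membrane proteins, measured in rat CG-4 cells after knockdown of QKI or hnRNP A1. The members were chosen by symbol, as Cav1, Cav2, Cavin1, Emp1, Emp2, Emp3 and Pmp22. Of these 7 genes, 5 had a named transcript cluster among the 18901 clusters of the gene-level table, and each of the 5 had 1 cluster. Cav2 and Cavin1 had none under a current or older symbol and are not analysed here. The list was drawn up with the values of the stable lines in view, in which Cav1 and Emp3 had stood out. Values that involve a stable line are therefore a description of the members, with no test.

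Caveolins are integral membrane proteins that, together with the cavin coat, shape caveolae, the small flask-like pits of the plasma membrane, and hold lipids and signalling proteins there. PMP22 and the epithelial membrane proteins EMP1, EMP2 and EMP3 form a family of small tetraspan proteins related to the claudins. PMP22 is best known from compact myelin of peripheral nerve, where the dosage of its gene matters for human neuropathy, and CG-4 cells belong to the central lineage of oligodendrocytes, whose myelin is built from other proteolipids.

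CG-4 is a line of rat oligodendrocyte progenitors, kept here in medium conditioned by B104 neuroblastoma cells. There were 6 groups of 3 arrays: untreated cells, cells with a transient non-silencing siRNA, a QKI siRNA or an hnRNP A1 siRNA, a stable non-silencing shRNA line and a stable line labelled QKI shRNA. QKI is an RNA-binding protein of myelinating glia and hnRNP A1 is a splicing regulator. The labels name Lipofectamine as the transfection reagent for every sample, call the 3 arrays of a group biological replicates, and do not say whether a stable line is 1 clone or a pool. All values are log2 intensities made with RMA, and a difference of 1 on this scale is a doubling of intensity. In bulk RNA, fewer cells with a transcript and less transcript per cell cannot be told apart.

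The labels were checked on the targeted genes and on lineage markers. Qki lay at 9.99, 10.02 and 9.67 with QKI siRNA, against 11.47, 11.39 and 11.14 with non-silencing siRNA. In the line labelled QKI shRNA it lay at 10.65, 10.35 and 11.14, and in the non-silencing line at 10.90, 11.01 and 10.99, so replicate 3 of that line had more Qki than any control array of the stable pair. Hnrnpa1 lay at 7.90, 7.85 and 7.65 with its siRNA and at 8.60, 8.47 and 8.44 with non-silencing siRNA. Of 9 measured oligodendrocyte lineage markers, 7 lay above the array median on all 18 arrays. The closest array by correlation was of another group for 7 of the 18 arrays. These include untreated array 3, closest to a QKI siRNA array, and array 3 of the line labelled QKI shRNA, closest to an untreated array. Values without them are given beside the larger differences that they move.

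The 250 bases before the annotated start are shown for Cav1, Emp3 and Pmp22, the members whose levels lay farthest apart between the stable lines. They are RefSeq sequences of build GRCr8, written 5′ to 3′ on the strand of the gene, and capitals mark matches to the motifs named next. Cav1 has a pair of annotated start windows, of which the first is printed, at chr4:46606288-46606537 on the plus strand. Emp3 lies at chr1:105528266-105528515 on the minus strand and Pmp22 at chr10:48294682-48294931 on the plus strand.
Cav1: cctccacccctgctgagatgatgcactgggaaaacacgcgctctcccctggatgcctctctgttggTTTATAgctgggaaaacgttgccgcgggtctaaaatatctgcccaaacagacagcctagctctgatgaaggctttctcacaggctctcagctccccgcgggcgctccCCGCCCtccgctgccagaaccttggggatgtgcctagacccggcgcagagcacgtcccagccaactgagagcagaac
Emp3: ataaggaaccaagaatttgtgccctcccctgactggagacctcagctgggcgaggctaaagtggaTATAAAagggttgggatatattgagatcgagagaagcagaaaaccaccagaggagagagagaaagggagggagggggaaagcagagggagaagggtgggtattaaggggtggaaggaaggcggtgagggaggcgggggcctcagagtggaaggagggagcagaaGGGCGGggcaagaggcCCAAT
Pmp22: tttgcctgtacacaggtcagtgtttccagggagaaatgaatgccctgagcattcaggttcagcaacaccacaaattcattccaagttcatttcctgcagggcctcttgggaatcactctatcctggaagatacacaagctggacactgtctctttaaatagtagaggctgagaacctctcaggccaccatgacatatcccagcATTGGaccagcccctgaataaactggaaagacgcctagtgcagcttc

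Motifs were searched on both strands of 300 bases per start, these 250 and the 50 that follow. TATAAA, the letters of a TATA box, occurs in 14.2% of the 33469 windows of the rat RefSeq set, and was found once each for Cav1 and Emp3. The first base of the match lay at -184 from the start for Cav1, on the opposite strand, and at -185 for Emp3. GGGCGG, the letters of a GC box, occurs in 33.1% of windows, with 2 matches for Cav1, 1 of them in the 50 bases not printed, and 1 for Emp3. Emp1 had 1 match, Emp2 3 and Pmp22 0. CCAAT occurs in 37.5% of windows, with 1 match each for Emp3 and Pmp22. TGANTCA, the letters of an AP-1 site, occurs in 7.33% of windows, with 2 matches for Emp1, 1 for Emp2 and 0 for the 3 genes printed. The matches in the printed stretches did not overlap one another. The second start window of Cav1 held 0 matches to these motifs. G and C made up 61.7% of the first window of Cav1, 55% of that of Emp3 and 49.7% of that of Pmp22. The median over all windows was 51.7%.

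Cav1 encodes caveolin-1, the scaffold of the caveolar coat. Its level was 8.33, 8.66 and 9.91 in untreated cells, 9.06, 9.17 and 9.32 with non-silencing siRNA and 8.96, 8.74 and 9.34 with QKI siRNA. It was 9.97, 9.82 and 10.25 with hnRNP A1 siRNA, 11.62, 10.93 and 10.84 in the non-silencing line, and 7.72, 7.23 and 5.61 in the line labelled QKI shRNA. Both stable lines lay outside the range of all other arrays, one above and one below, on each of their 3 arrays. In order of the means, the non-silencing line was followed by hnRNP A1 siRNA, then by non-silencing siRNA, QKI siRNA and untreated cells, which overlapped as neighbours, and last by the line labelled QKI shRNA. At the exon level Cav1 had 1 named probe set, whose value was identical to the cluster's on all 18 arrays, so the gene was read by a single probe set.

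Emp3 encodes a small tetraspan protein of the EMP family. Its level in the line labelled QKI shRNA was 8.51, 8.31 and 6.20. It was 3.93, 4.03 and 5.06 in untreated cells, 4.11, 3.75 and 3.97 with non-silencing siRNA, 4.49, 4.30 and 4.06 with QKI siRNA, 4.32, 4.07 and 3.55 with hnRNP A1 siRNA, and 3.96, 3.99 and 4.16 in the non-silencing line. The 3 arrays of the line labelled QKI shRNA lay above the other 15, and the other groups overlapped as neighbours at levels near the array medians, which ran from 3.77 to 4.18.

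Pmp22 encodes the peripheral myelin protein of that name. Its level was 5.63, 5.79 and 7.18 in untreated cells, 4.81, 5.17 and 5.11 with non-silencing siRNA, 5.51, 5.15 and 5.08 with QKI siRNA, and 5.83, 5.28 and 5.30 with hnRNP A1 siRNA. It was 8.45, 7.61 and 7.04 in the non-silencing line and 4.64, 4.70 and 5.25 in the line labelled QKI shRNA. The non-silencing line was highest and overlapped only with untreated cells, through untreated array 3. The line labelled QKI shRNA had the lowest mean, but its arrays overlapped those with non-silencing siRNA and those with QKI siRNA.

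Emp1 encodes epithelial membrane protein 1. Its level was 5.43, 5.77 and 6.82 in untreated cells, 5.02, 6.06 and 5.71 with non-silencing siRNA, 6.22, 5.95 and 5.83 with QKI siRNA, and 6.35, 6.12 and 6.18 with hnRNP A1 siRNA. It was 8.27, 6.44 and 6.81 in the non-silencing line and 6.94, 6.78 and 5.54 in the line labelled QKI shRNA. All neighbours in the order of group means overlapped. Emp2, which encodes epithelial membrane protein 2, had the narrowest range: 3.91 to 4.76 over the 18 arrays, with group means between 4.13 and 4.52. Its neighbouring groups overlapped too.

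**Figure D1:**
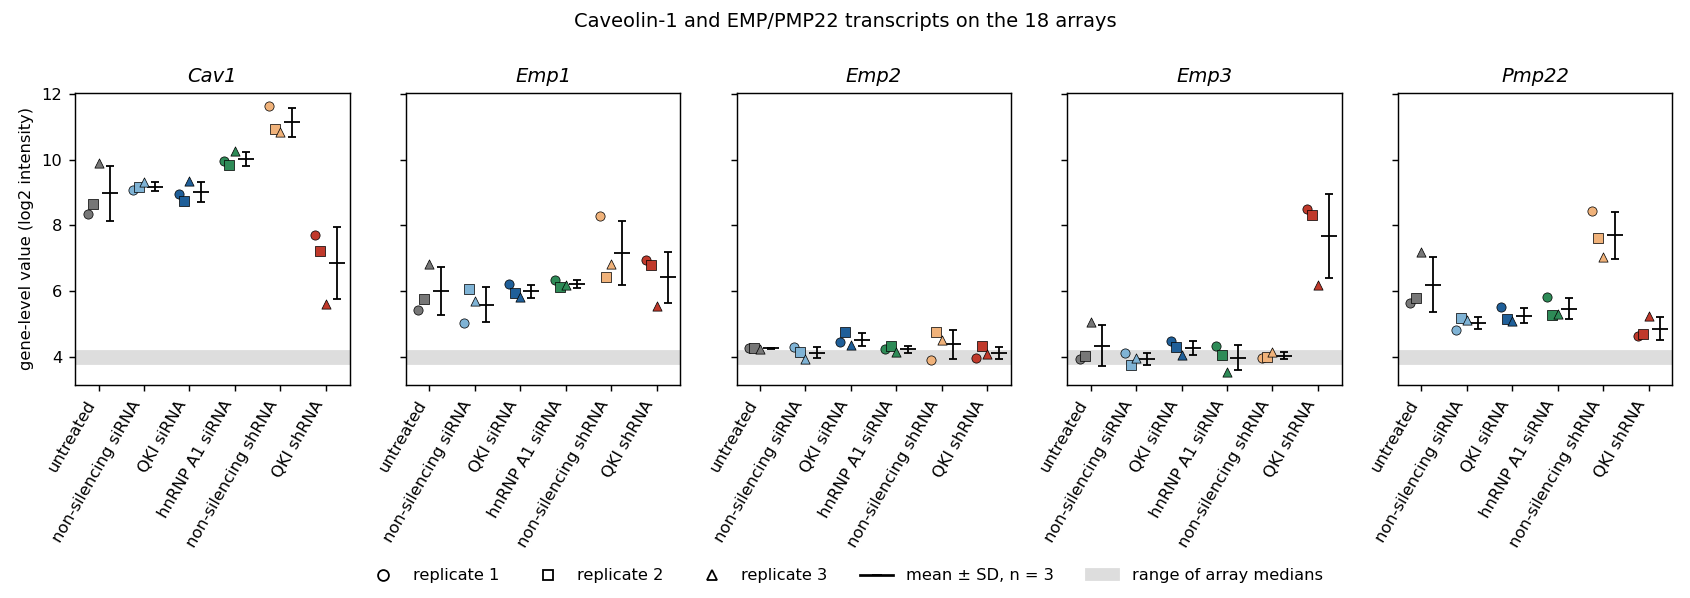
Gene-level log2 intensity of the 5 measured genes on each of the 18 arrays, by group. Symbols mark the replicate number, bars show the mean ± SD of 3 arrays, and the grey band is the range of the 18 array medians, 3.77 to 4.18. Cav1 and Pmp22 have their highest means in the non-silencing shRNA line and their lowest in the line labelled QKI shRNA. Pmp22 of that line overlaps the non-silencing siRNA and QKI siRNA arrays. Emp3 is high in the line labelled QKI shRNA.

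The first question is how the line labelled QKI shRNA differed from the non-silencing line, each a stable derivative of CG-4. Cav1 averaged 6.85 ± 1.10 against 11.13 ± 0.43 (SD, n = 3 each), a log2 difference of -4.28 ± 0.45 (limma's moderated standard error, as for all changes below), or 19.4-fold lower. Pmp22 averaged 4.86 ± 0.34 against 7.70 ± 0.71, a log2 difference of -2.84 ± 0.37, or 7.15-fold lower. Emp3 averaged 7.67 ± 1.28 against 4.04 ± 0.10, a log2 difference of 3.63 ± 0.45, or 12.4-fold higher. Emp1, at -0.76 ± 0.46, and Emp2, at -0.27 ± 0.18, had overlapping arrays. Both depended on single arrays: Emp1 had -0.21 without array 1 of the non-silencing line, -0.31 without the array labelled QKI shRNA replicate 3 and -1.12 without non-silencing array 2, and Emp2 had -0.51 and -0.08 without non-silencing arrays 1 and 2. So 3 of the 5 members had arrays that did not overlap, 1 higher and 2 lower, where 22.6% of all clusters did not overlap. Nothing is read from that share, since this contrast led to the choice of the members. The array labelled QKI shRNA replicate 3 held the lowest Cav1, Emp1 and Emp3 and the highest Pmp22 of its line. Without it the line's mean was 7.47 for Cav1, 8.41 for Emp3 and 4.67 for Pmp22.

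Against untreated cells the line labelled QKI shRNA had a log2 difference of -2.11 ± 0.45 for Cav1, -1.34 ± 0.37 for Pmp22 and 3.34 ± 0.45 for Emp3, each without overlap of the arrays. These are 3 of the 5 members, where 15.8% of clusters did not overlap, and again nothing is read from the share. Emp1 had 0.41 ± 0.46 and Emp2 -0.13 ± 0.18. With untreated array 3 and the array labelled QKI shRNA replicate 3 both left out, the difference was -1.02 for Cav1, 4.43 for Emp3 and 1.26 for Emp1, and 4 members did not overlap, 2 higher and 2 lower. The setting was chosen after the data were seen. Groups of fewer arrays overlap less often, and the share of all clusters was not counted there, so nothing is read from that count of members. Leaving out untreated array 3 alone gave -1.64 for Cav1 and -0.85 for Pmp22.

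The non-silencing line was also set against untreated cells, from which both stable lines derive. Its log2 difference was 2.16 ± 0.45 for Cav1, 1.5 ± 0.37 for Pmp22, 1.17 ± 0.46 for Emp1, 0.14 ± 0.18 for Emp2 and -0.30 ± 0.45 for Emp3. Cav1 was the 1 member of 5 without overlap, where 20.7% of clusters did not overlap, and nothing is read from it. Without untreated array 3, at 7.18 for Pmp22 and 6.82 for Emp1, 3 members did not overlap. The share of all clusters was not counted without that array, and nothing is read from this count either. Without array 1 of the non-silencing line, at 8.27 for Emp1, the difference of Emp1 was 0.62. The 3 comparisons of stable lines share groups with one another, so their differences are not independent. The mean Cav1 and Pmp22 levels of the line labelled QKI shRNA lay below those of untreated cells. The means of the non-silencing line lay above, with Pmp22 arrays that overlapped through untreated array 3.

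**Figure D2:**
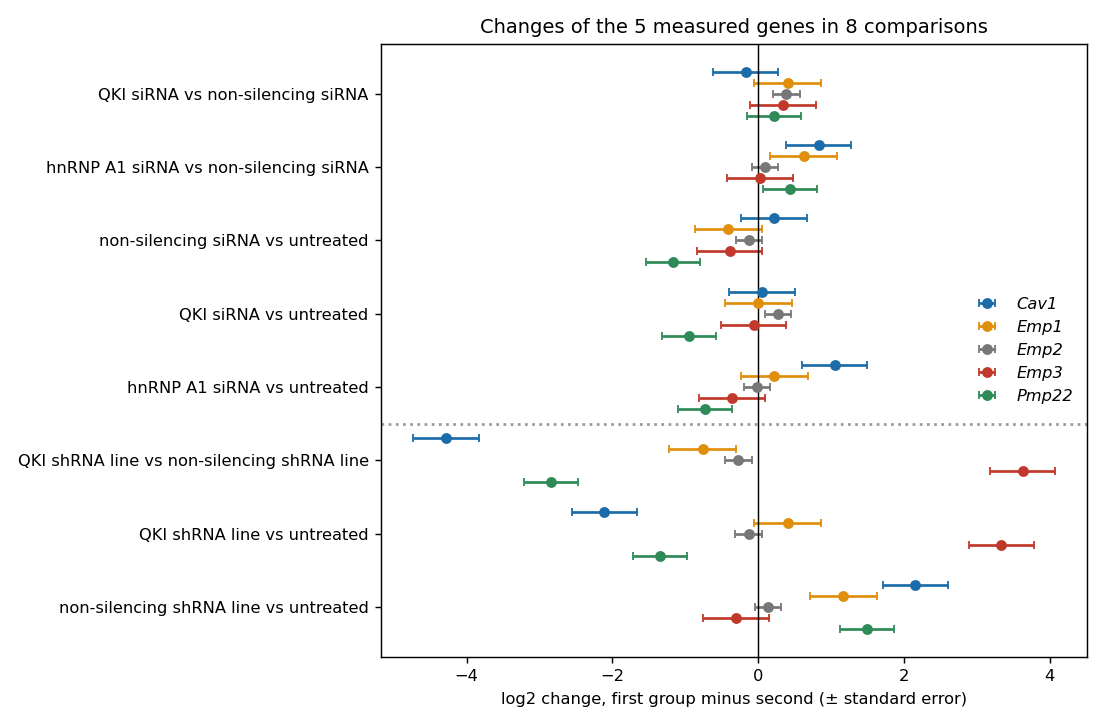
Log2 change of each measured gene in the 8 comparisons, first group minus second, with limma's standard error and 3 arrays per group. Below the dotted line stand the comparisons with a stable line, where Cav1 ranges from -4.28 to 2.16 and Emp3 reaches 3.63, and above it those of the siRNA groups, in which the changes lie between -1.17 and 1.05.

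The exon-level table reads the same arrays through 26 probe sets of these genes, and shows whether the named probe sets of a gene share a difference. Their positions along the transcript were not used. For Emp3 all 5 probe sets were higher in the line labelled QKI shRNA than in the non-silencing line, by 2.10 to 4.30 on the log2 scale, 4 of them without overlap. For Pmp22, 6 of 7 probe sets were lower. The 5 brightest were lower without overlap, at differences between -4.44 and -2.76, and the 2 dimmest had -0.45 and 0.03. Emp1 had a lower mean in all 6 of its probe sets, from -0.88 to -0.48, each with overlapping arrays, and Emp2 in 5 of 7, from -0.81 to 0.21, 2 of them without overlap. Probe sets of a gene share their arrays and are not replicates.

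**Figure D3:**
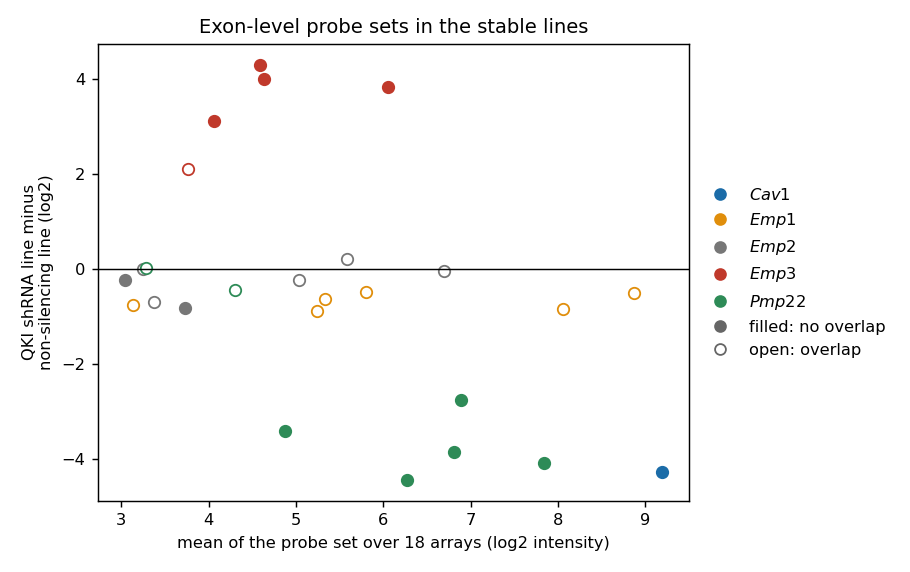
Difference of each exon-level probe set between the line labelled QKI shRNA and the non-silencing line, in log2 units, against its mean log2 intensity over 18 arrays. Filled points had arrays that did not overlap between the lines. The 5 Emp3 probe sets lie between 2.10 and 4.30, and the 2 dimmest Pmp22 probe sets lie near 0, apart from the other 5.

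Cells with QKI siRNA were compared with those given non-silencing siRNA, a comparison that holds no stable line. Emp2 had the lowest p, with a log2 change of 0.39 ± 0.18 and no overlap of the arrays (limma, adjusted p = 0.545 over all clusters). Emp1 had 0.41 ± 0.46, Emp3 0.34 ± 0.45, Pmp22 0.22 ± 0.37 and Cav1 -0.17 ± 0.45, with adjusted p from 0.844 to 0.943. Thus 0 of the 5 members were called by limma at an adjusted p under 0.05, as were 0% of all clusters, and 1 member had an unadjusted p under 0.05, as did 1721 clusters. Without overlap stood 1 of 5 members, where 14.0% of all clusters did. In this comparison Qki itself changed by -1.44 ± 0.22 (adjusted p = 0.179) and was not called either. Between the line labelled QKI shRNA and the non-silencing line Qki differed by -0.25 ± 0.22, with overlapping arrays. Whether the differences of Cav1, Emp3 or Pmp22 between the stable lines come from QKI was not tested, nor whether they differ from the changes with QKI siRNA.

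The hnRNP A1 siRNA was set against the same control. Cav1 was higher by 0.83 ± 0.45 (adjusted p = 0.776), Emp1 by 0.63 ± 0.46 (adjusted p = 0.89) and Pmp22 by 0.44 ± 0.37 (adjusted p = 0.915), and these 3 of 5 members had arrays without overlap, where 13.8% of clusters did. Emp2 had 0.10 ± 0.18 and Emp3 0.03 ± 0.45. Limma called 0 of the 5 members, with 0 at an unadjusted p under 0.05, and 0.00529% of clusters. All 6 probe sets of Emp1 had a higher mean with hnRNP A1 siRNA, by 0.03 to 1.40, 2 of them without overlap, and 5 of the 7 of Pmp22, 2 of them without overlap. Hnrnpa1 changed by -0.70 ± 0.19 (adjusted p = 0.393).

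The siRNA groups were also set against untreated cells, of which array 3 had the highest Cav1, Emp1, Emp3 and Pmp22 of its group. Pmp22 had a log2 change of -1.17 ± 0.37 with non-silencing siRNA (adjusted p = 0.261), and its arrays did not overlap, as for 1 of 5 members and 22.7% of clusters. With QKI siRNA it had -0.95 ± 0.37 (adjusted p = 0.228), also without overlap. There 2 of 5 members did not overlap, Emp2 being higher by 0.27 ± 0.18, and 20.6% of clusters did not. With hnRNP A1 siRNA Pmp22 had -0.73 ± 0.37 (adjusted p = 0.445), with overlapping arrays. There 0 of 5 members stood without overlap, beside 3385 of the 18901 clusters. Without untreated array 3, at 7.18 for Pmp22, these changes were -0.68, -0.46 and -0.24 in the same order. The 3 comparisons share the untreated arrays. Of the 3 changes of Pmp22, that with non-silencing siRNA was the largest in size.

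Cav1 had a log2 change of 1.05 ± 0.45 with hnRNP A1 siRNA against untreated cells (limma, adjusted p = 0.348), with arrays that overlapped through untreated array 3, at 9.91. With that array and the array labelled QKI shRNA replicate 3 both left out, the change was 1.52 and passed (adjusted p = 0.00421). Without untreated array 3 alone the change was the same and did not pass (adjusted p = 0.0847), so the call also needs the removal of an array that enters here only through the estimate of spread. Its adjusted p ran from 0.00421 to 0.795 over the alternatives tried. Against untreated cells limma called 0 of 5 members with non-silencing siRNA, where 0.0794% of clusters were called, 0 of 5 with QKI siRNA, where 0.460% were, and 0 of 5 with hnRNP A1 siRNA, where 0.296% were. In each of these comparisons 1 member had an unadjusted p under 0.05, beside 1953, 3241 and 2365 clusters.

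The members were set side by side on the 18 arrays, as a description. Deviations from the group means, which leave out the differences between groups, correlated at 0.80 between Cav1 and Emp1 and at 0.58 between Emp1 and Pmp22. With untreated array 3 and the array labelled QKI shRNA replicate 3 left out, these values were 0.61 and 0.79 over 16 arrays. Between Cav1 and Emp3 the value was 0.78 with those arrays and -0.36 without them, so that the positive value rests on them. For Emp2 the values were -0.35 with Cav1, -0.56 with Emp1 and -0.43 with Pmp22, and -0.88, -0.79 and -0.57 without those arrays. Emp2 and Emp3 had 0.1 with those arrays and 0.17 without them. In the same order Cav1 and Pmp22 had 0.33 and 0.51, Emp1 and Emp3 0.58 and -0.09, and Emp3 and Pmp22 0.08 and 0.09. Points of an array share its RNA preparation and its hybridisation.

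**Figure D4:**
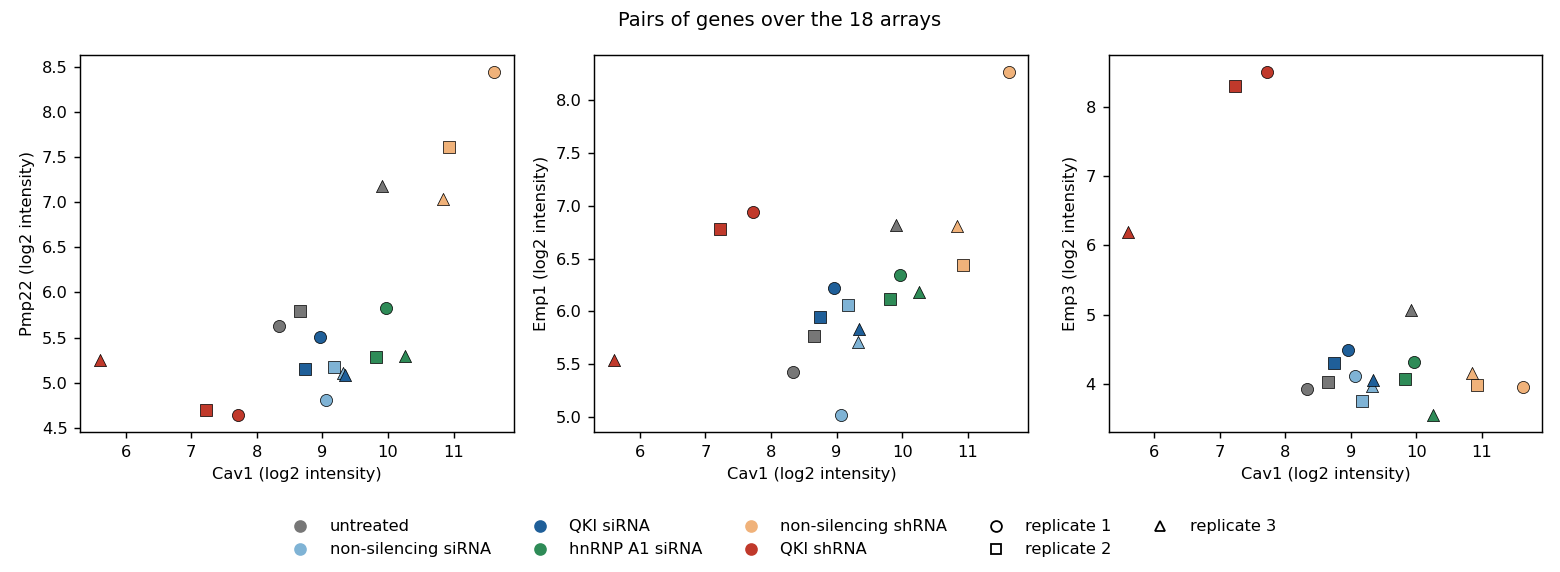
Log2 intensity of Pmp22, Emp1 and Emp3 against that of Cav1 on the 18 arrays, 1 point per array, coloured by group and shaped by replicate number. The 3 arrays of the line labelled QKI shRNA lie at Cav1 levels of 5.61 to 7.72, apart from all others, and those of the non-silencing shRNA line at 10.84 to 11.62.

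The genes with the most similar pattern were sought among 774 clusters whose group means had an SD of at least 0.5. For Cav1 they were Tmeff1 (Pearson r = 0.932 over 18 arrays), Jag1 (0.928), a Notch ligand, Rnf5 (0.926), Skap2 (0.925) and Scarb1 (0.911), the receptor for high-density lipoprotein. For Emp3 they were Epcam (r = 0.977), an epithelial adhesion molecule, Sema3c (0.963), a secreted semaphorin, Atp10d (0.959), Aebp1 (0.956) and Kitlg (0.954), the ligand of the KIT receptor. Since they were chosen by correlation with Emp3, their group means share its split, and nothing is read from that. Epcam had 5.70 in the line labelled QKI shRNA and between 3.34 and 3.58 in the other 5 groups. For Pmp22 they were Shc4 (r = 0.946), Cnn3 (0.938), Lin7a (0.92), Prph (0.903), which encodes the neuronal intermediate filament peripherin, and Zdhhc2 (0.90). For Emp1 they were Zfp367 (r = 0.88), Cenpm (0.878), Dut (0.872), Clic1 (0.863) and Ogg1 (0.863), and for Emp2 no gene was above 0.599, the value of Gng3.

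The lists of related and marker genes below were also chosen with earlier results of these data known. Their calls and counts are therefore a description, and nothing is read from them as independent support. Other parts of the caveola were measured through 12 of 13 listed coat and neck proteins. In the line labelled QKI shRNA against the non-silencing line, in which limma called 10.3% of all clusters, 0 rose and 3 fell. Ehd1, an ATPase of the EHD family that remodels membranes, changed by -0.97 ± 0.21 (adjusted p = 0.00545), and Dnm2, the membrane-severing GTPase dynamin-2, by -0.95 ± 0.20 (adjusted p = 0.00481). Pacsin3, a membrane-bending F-BAR protein, changed by -0.79 ± 0.24 (adjusted p = 0.0453), and its call was kept under 5 of 13 alternatives. It was lost without either of the first 2 arrays of the line labelled QKI shRNA and without any one array of the non-silencing line (adjusted p = 0.0767 to 0.216). The median of the list was -0.17, and that of all clusters 0.01. In the other 7 comparisons 0 of the 12 were called. The coat genes Cav3, Cavin2, Cavin3 and Cavin4 were thus called in none of the comparisons. Over the 18 arrays they ran from 3.81 to 4.48, 3.49 to 4.68, 4.25 to 5.35 and 3.14 to 3.74, in that order. The array medians ran from 3.77 to 4.18.

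Membrane raft scaffolds were measured for 10 of 12 genes. Flot1, which encodes flotillin-1, fell by 1.21 ± 0.14 on the log2 scale in the line labelled QKI shRNA against the non-silencing line (adjusted p = 5.47e-05). Anxa2, the membrane-binding annexin A2, rose by 1.91 ± 0.40 (adjusted p = 0.00545), so 1 rose and 1 fell, where 10.3% of all clusters were called. In the non-silencing line against untreated cells, in which 3.26% of clusters were called, Flot1 rose by 0.88 ± 0.14 (adjusted p = 0.00388), the 1 call in the list. All 3 calls were made under each of the 13 alternatives. The median of the list was -0.05 in the first comparison and 0.28 in the second, where that of all clusters was 0.06.

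Proteins reported to bind caveolin were measured for 18 of 23 genes, and in the line labelled QKI shRNA against the non-silencing line 0 rose and 2 fell, where 10.3% of all clusters were called, a share near that of the list. Scarb1 changed by -1.79 ± 0.25 (adjusted p = 0.000247) and Trpc1, a cation channel subunit, by -1.26 ± 0.20 (adjusted p = 0.000651). Against untreated cells, where 2.04% of clusters were called, 3 fell: Scarb1 with -1.14 ± 0.25 (adjusted p = 0.0247), Trpc1 with -1.02 ± 0.20 (adjusted p = 0.0117) and the kinase Fyn with -0.76 ± 0.16 (adjusted p = 0.017). These last 3 were less firm. The call of Scarb1 was lost without either of untreated arrays 1 and 3 or of arrays 1 and 3 labelled QKI shRNA (adjusted p = 0.0504 to 0.0763). Those of Trpc1 and Fyn were lost without either of the first 2 arrays of either group (adjusted p = 0.05 to 0.118). Fyn also fell with QKI siRNA against untreated cells, with a log2 change of -0.82 ± 0.16 (adjusted p = 0.0348), a call lost without either of untreated arrays 1 and 2 or of QKI siRNA arrays 2 and 3 (adjusted p = 0.0977 to 0.198).

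The other claudin-fold tetraspan proteins, the wider family of the EMPs, were measured for 23 of 24 genes. Limma called 1 of them in 1 comparison, in which it called 3.26% of all clusters. Cldn12, a claudin, was higher in the non-silencing line than in untreated cells by 0.44 ± 0.11 (adjusted p = 0.038). The call was kept under 3 of 13 alternatives and was lost without any one array of either group. In the line labelled QKI shRNA against the non-silencing line 0 were called, where 10.3% of all clusters were, and their median log2 change was -0.02. Of 11 listed partners of EMP and PMP22 proteins, integrins and chaperones among them, 6 were measured and 0 were called in any of the 8 comparisons, with a median of -0.16 in the stable pair.

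A list of myelin proteins, proteolipids and tetraspanins was measured for 12 of 16 genes. In the line labelled QKI shRNA against the non-silencing line 1 rose and 3 fell, where 10.3% of all clusters were called. Gpm6b, a proteolipid related to the main proteolipid of myelin, fell by 1.23 ± 0.17 (adjusted p = 0.000243). The tetraspanins Cd81 and Cd151 fell, with changes of -1.14 ± 0.24 (adjusted p = 0.00497) and -0.79 ± 0.22 (adjusted p = 0.0288), and the tetraspanin Cd82 rose by 0.85 ± 0.20 (adjusted p = 0.0113). In the non-silencing line against untreated cells limma called 3.26% of all clusters. There 3 rose, Gpm6b by 1.24 ± 0.17 (adjusted p = 0.00161), Cd151 by 1.04 ± 0.22 (adjusted p = 0.0188) and Cd81 by 1.00 ± 0.24 (adjusted p = 0.0327), and 1 fell, Mog with -1.13 ± 0.19 (adjusted p = 0.00622). The calls of Gpm6b and Mog in these comparisons were made under each of 13 alternatives. In the stable pair that of Cd151 was lost without the array labelled QKI shRNA replicate 3 or without non-silencing array 1 or 3 (adjusted p = 0.0949 to 0.114), and that of Cd82 without array 1 or 2 labelled QKI shRNA or non-silencing array 1 (adjusted p = 0.0526 to 0.0675). Against untreated cells those of Cd151 and Cd81 were lost without most of the single arrays (adjusted p = 0.0535 to 0.0948 and 0.0698 to 0.145). Against untreated cells limma called 2.04% of all clusters in the line labelled QKI shRNA and 0.296% with hnRNP A1 siRNA. Mog also fell in both of these comparisons, with changes of -0.92 ± 0.19 (adjusted p = 0.017) and -0.98 ± 0.19 (adjusted p = 0.0434). The first of these calls was lost without untreated array 1 or 2 or array 1 labelled QKI shRNA (adjusted p = 0.0898 to 0.0988), and the second without untreated array 1 or 2 or any one array of the siRNA (adjusted p = 0.0708 to 0.216).

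Markers of the oligodendrocyte lineage and of astrocytes were called in the stable pair, in which 10.3% of clusters were. Of 9 oligodendrocyte lineage markers 0 rose and 3 fell in the line labelled QKI shRNA against the non-silencing line: Mbp, a main protein of myelin, with -4.24 ± 0.70 (adjusted p = 0.000919), Cnp with -2.71 ± 0.34 (adjusted p = 8.92e-05) and Olig1 with -1.26 ± 0.28 (adjusted p = 0.00717). The mean over the list was 6.97 to 7.66 on the arrays of the line labelled QKI shRNA and 8.25 to 8.78 on those of the non-silencing line. Against untreated cells limma called 2.04% of all clusters in the line labelled QKI shRNA and 3.26% in the non-silencing line. With QKI and hnRNP A1 siRNA it called 0.460% and 0.296%. Of the lineage markers 4 fell against untreated cells in the line labelled QKI shRNA, the largest changes being those of Mbp, Mag and Gpr17. In the non-silencing line 1 fell, Mag, and 1 each with QKI and hnRNP A1 siRNA, Ptprz1 in both. Of these, the call of Gpr17 was lost without array 1 or 2 of either group (adjusted p = 0.0662 to 0.0733), and that of Mag in the non-silencing line without any one array (adjusted p = 0.0716 to 0.101). That of Ptprz1 was lost without untreated array 1 or 2, QKI siRNA array 2, or hnRNP A1 siRNA array 1 or 2 (adjusted p = 0.0616 to 0.155). Of 5 measured astrocyte markers 2 rose, Gfap by 2.31 ± 0.57 (adjusted p = 0.0143) and Slc1a3 by 1.42 ± 0.33 (adjusted p = 0.00989), and 1 fell, Aldoc with -1.44 ± 0.36 (adjusted p = 0.0153), with list means of 5.53 to 6.30 against 5.16 to 5.44. The call of Gfap was lost without the array labelled QKI shRNA replicate 3 (adjusted p = 0.0584) or non-silencing array 1 (adjusted p = 0.0693), and that of Slc1a3 without non-silencing array 2 (adjusted p = 0.053). That of Aldoc was lost without either of the first 2 arrays of the line labelled QKI shRNA or non-silencing array 2 or 3 (adjusted p = 0.053 to 0.0858). Against untreated cells Slc1a3 was lower in the non-silencing line and with QKI siRNA, the 1 call of the list in each. Both were lost without untreated array 1 or 2 or without array 2 or 3 of the other group (adjusted p = 0.0747 to 0.198). The part of these shifts in the values of Cav1, Emp3 and Pmp22 was not tested.

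Cell types in which caveolins or PMP22 are abundant were covered by 5 of 8 Schwann cell markers, 8 of 9 fibroblast markers, 4 of 8 endothelial markers and 4 of 5 smooth muscle markers, and 5 of 6 microglia markers were added. Limma called 0 of each list in all 8 comparisons. Below the array median on all 18 arrays lay 2, 4, 2, 2 and 4 of them, in that order. Above it on all 18 arrays lay 2, 1, 2, 0 and 0. The mean over the Schwann cell list was 3.89 to 4.24 in the line labelled QKI shRNA and 4.04 to 4.12 in the non-silencing line, and that over the fibroblast list 3.60 to 3.82 and 3.42 to 3.81. For endothelial markers these ranges were 4.04 to 4.26 and 4.07 to 4.58, and for smooth muscle 3.78 to 3.92 and 3.47 to 3.85.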

How the data were processed

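RNA of 18 cultures was hybridised to Affymetrix rat exon arrays after removal of ribosomal RNA and sense-strand labelling, per the labels' protocols. The authors deposited log2 intensities of each array at the gene and at the exon level, made with RMA and Partek, per the submitters' processing notes. No version, genome build or annotation is given in the sources used here. Each array's deviations correlated at 0.958 or higher between both tables and at 0.844 or lower with other arrays, over 12406 genes. No read depth applies, and the number of arrays limits the precision. Symbols came from the platform annotation, updated through RefSeq GRCr8: 13327 clusters had 1 symbol, 620 several and 4954 none.

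Group means were fitted over all 18 arrays with limma version 3.58.1 in R version 4.3.3 (lmFit, eBayes, 12 residual and 3.57 prior degrees of freedom). Tests were two-sided, adjusted by Benjamini-Hochberg over 18901 clusters, and called under 0.05. The fit was tested on simulated data. For each list up to 3 called genes per direction and comparison are named, and for each member the 5 clusters of most similar pattern, at or above the 25th percentile of means. Alternatives were quantile normalisation, median centring, a filter at the 25th percentile, a trended robust prior, a replicate block, the 6 arrays compared alone, single arrays left out and, for members, the mean of exon-level probe sets. The members and lists were chosen with earlier results of these data known.

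Replicate numbers come from the sample titles. Deviations of same-numbered arrays correlated weakly in the stable pair (r = 0.25, 0.14 and 0.15), and at r from -0.51 to 0.26 elsewhere. No pairing is read from these values.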

Additional observations from a re-analysis of the deposited data

How the results depend on the processing

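Calls depended on the arrays and on the scaling, and the cause was not tested. With untreated array 3 and QKI shRNA array 3 left out together, a setting chosen after seeing the data, 25 clusters were called for QKI siRNA and 3 for hnRNP A1 siRNA against non-silencing siRNA. Against untreated cells 197 were called for non-silencing siRNA, 897 for QKI siRNA, 843 for hnRNP A1 siRNA, 1635 for the QKI shRNA line and 1363 for the non-silencing line. The main counts in that order were 0, 1, 15, 87, 56, 385 and 616, and 1943 in the stable pair. Then 1 member was called, Cav1 for hnRNP A1 siRNA against untreated cells, and 3 did not overlap between the non-silencing line and untreated cells. The share of all clusters without overlap was not counted under this setting. With the replicate block 3 clusters were called for hnRNP A1 against non-silencing siRNA, and 57, 152 and 118 for non-silencing, QKI and hnRNP A1 siRNA against untreated cells. The block changed no other count by over 1.5 times, with 2075 in the stable pair, and no call of a member. Quantile normalisation gave 2, 25, 213 and 128 for the same comparisons. Median centring gave 4, 29 and 9 for the siRNAs, 233 for the QKI shRNA line and 158 for the non-silencing line against untreated cells, and the trended robust prior 6, 52 and 37 for the siRNAs. With only the 6 arrays compared, 2 and 0 were called against non-silencing siRNA, 120, 5, 5, 90 and 241 against untreated cells, and 1275 in the stable pair. In the stable pair 639 rose and 1304 fell, against 981 and 1015 after quantile normalisation.

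With single arrays left out, counts ranged from 0 to 2 and from 1 to 26 for QKI and hnRNP A1 siRNA against non-silencing siRNA, and against untreated cells from 2 to 51, 7 to 418, 6 to 360, 175 to 845 and 159 to 897 for the groups as above. Members without overlap between the non-silencing line and untreated cells ranged from 1 to 3, with no share of all clusters counted beside them. Of 350 alternatives for tested members, 328 kept direction and side, 1 was stronger and 21 turned in direction, all of small uncalled changes. Against untreated cells the change with QKI siRNA became -0.11 for Cav1 by median centring, 0.0499 for Emp1 by quantile normalisation, and 0.40 for Emp1 and 0.30 for Emp3 without both arrays. With hnRNP A1 siRNA it became 0.045 for Emp2 by the mean of probe sets and 0.00105 for Emp3 without both arrays. Single arrays left out moved Cav1 with QKI siRNA from -0.27 to 0.52 and with non-silencing siRNA from -0.10 to 0.69. They moved Emp1 with QKI siRNA from -0.29 to 0.40 and with hnRNP A1 siRNA from -0.0726 to 0.622, Emp2 with hnRNP A1 siRNA from -0.0706 to 0.0270, and Emp3 with QKI siRNA from -0.26 to 0.30 and with hnRNP A1 siRNA from -0.56 to 0.00105. Against non-silencing siRNA, Emp3 with hnRNP A1 siRNA moved from -0.14 to 0.25.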
